A study of Mus musculus with 6 samples.

Results

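The levels of 9 genes of caveolae, pits of the cell surface, were compared between 2 sorted sub-populations of mouse heart cells. They were the caveolins Cav1, Cav2 and Cav3, the cavins under their older symbols Ptrf (cavin-1), Sdpr (cavin-2), Prkcdbp (cavin-3) and Murc (cavin-4), and the EHD genes Ehd2 and Ehd4. They were chosen by symbol, and all 9 were found among 23404 genes. The cells were cardiomyocyte preparations of the C57BL/6J strain, with no genotype, treatment or age in the labels. They had been sorted by forward scatter (FSC), which grows with particle size, and by fluorescence in the FITC channel into a FITChigh/FSCdim gate and a FITCdim/FSChigh gate, called FITChigh and FITCdim here. There were 3 mRNA libraries per gate, stated to be biological replicates. Some titles carry the tags 1-2 or 3-4, whose meaning is not given. The title of the series gives the aim as isolating purified ventricular cardiomyocytes by autofluorescence, and the comparison asks how the RNA of the gates differed.

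Caveolae are small flask-shaped pits of the plasma membrane, built from caveolin proteins in the membrane, cavin proteins that coat the pit from the cytosol, and EHD proteins, ATPases found at its neck. Cav1 and Cav2 are the caveolins of endothelial cells, fibroblasts, smooth muscle and fat cells, and Cav3 is the caveolin of striated muscle, where it also serves the transverse tubules. Among the cavins, cavin-1 is needed for caveolae in all these cells, while cavin-4 is largely a muscle protein.

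The unit throughout is the adjusted read count, which is the authors' count of reads after adjustment to 1 library size for all. From these the number of reads was recovered, 1589825 to 2931045 per library in FITChigh and 1705626 to 3345994 in FITCdim, of which the 9 genes held 1675 to 3417 and 3064 to 6657. All 12 cardiomyocyte markers, the labelled cell type, were detected in both gates, with a summed level of 428117 to 456629 in FITChigh and 277818 to 333690 in FITCdim. Across the whole table, 13.5% of 12907 genes tested were lower in FITChigh and 2.51% were higher, and 31.6% had values that did not overlap between the gates. These were 1748 lower and 324 higher genes, against 2189 and 41 with each library rescaled to 1 common total and 1213 and 467 after quantile normalization. The higher genes numbered 85 without FITCdim replicate 1, when the lower ones numbered 1156, and 215 without FITCdim replicate 3, 67 without FITChigh replicate 1 and 184 without FITChigh replicate 2. Testing was by limma-trend, applied to log2(value + 1), and p-values were adjusted after Benjamini and Hochberg over all genes tested (threshold 0.05). Fold changes are on that scale, which understates those of low genes. In mixed samples, fewer cells of a type and less RNA per cell cannot be told apart.

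Of the 9 caveola genes, all of which were tested, 6 were lower in FITChigh, 0 were higher and 3 did not pass the test. Their median log2 fold change was -1.19, against -0.01 over all genes tested, of which 13.5% were lower and 2.51% were higher. The 6 lower genes were Cav1, Cav2, Ptrf, Sdpr, Prkcdbp and Ehd2. Cav3, Murc and Ehd4 did not pass. At an unadjusted limma p under 0.05, Murc alone would count as higher (0.015), and none by limma-voom at the adjusted threshold. In 7 of the 9 genes the values of the gates did not overlap, the exceptions being Cav3 and Ehd4. Over all genes tested this share was 31.6%.

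Cav1 and Cav2 are neighbours on chromosome 6, on the same strand, with 17219 bases between them. In the mm10 build Cav2 spans 17281185 to 17289115 and Cav1 spans 17306335 to 17341452, while Cav3 lies apart on the same chromosome at 112459505 to 112472872. The 250 bases before the start of each caveolin and of Murc are shown because Cav1 and Cav2 fell together while the muscle genes Cav3 and Murc did not. They are from RefSeq on GRCm38.p6, all on the plus strand, in the order 5′ to 3′. Capitals mark the E-box letters CANNTG, which read the same on both strands in this form.
Cav1, chr6:17306085-17306334: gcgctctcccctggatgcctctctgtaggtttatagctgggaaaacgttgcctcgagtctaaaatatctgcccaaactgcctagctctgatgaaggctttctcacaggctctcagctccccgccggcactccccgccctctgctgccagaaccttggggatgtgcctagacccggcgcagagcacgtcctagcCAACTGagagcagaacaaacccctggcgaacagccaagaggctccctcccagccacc
Cav2, chr6:17280935-17281184: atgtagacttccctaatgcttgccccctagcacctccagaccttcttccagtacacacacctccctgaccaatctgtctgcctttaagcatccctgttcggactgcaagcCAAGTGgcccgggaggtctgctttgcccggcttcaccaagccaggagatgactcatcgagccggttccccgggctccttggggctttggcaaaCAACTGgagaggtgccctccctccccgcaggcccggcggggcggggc
Cav3, chr6:112459255-112459504: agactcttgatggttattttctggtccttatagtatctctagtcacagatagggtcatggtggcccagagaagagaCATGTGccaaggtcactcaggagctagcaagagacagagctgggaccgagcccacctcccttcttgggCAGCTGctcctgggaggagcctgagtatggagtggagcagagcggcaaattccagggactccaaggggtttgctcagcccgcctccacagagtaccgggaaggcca
Murc, chr4:48663264-48663513: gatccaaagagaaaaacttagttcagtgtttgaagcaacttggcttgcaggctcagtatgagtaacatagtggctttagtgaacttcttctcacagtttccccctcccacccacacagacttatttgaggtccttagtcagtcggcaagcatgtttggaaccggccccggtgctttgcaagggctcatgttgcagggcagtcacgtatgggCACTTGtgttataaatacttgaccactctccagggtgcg
The E-box letters occurred 1 time before Cav1, 2 times before Cav2, 2 times before Cav3 and 1 time before Murc. They occurred in 66.2% of all 32851 windows of this length, so a match is common. The letters TATAAA (either strand) stood before Cav1 and before Murc and in 12.4% of all windows, and the letters GGGCGG (either strand) stood before Cav1 and Cav2, not before Cav3 or Murc, and in 32.7% of all windows. The letters CATTCC (either strand) were in none of these 4 windows and in 12.6% of all. Among the members whose windows are not shown, GGGCGG stood in those of Ptrf, Ehd2 and Ehd4 and not in that of Sdpr. It thus did not follow the calls, as Sdpr was lower and Ehd4 was not called. CATTCC stood in the window of Ptrf. The letters CCAAT (either strand), in 33.8% of all windows, stood in those of Cav2, Ptrf, Sdpr, Ehd2 and Ehd4. The windows of Ptrf, Ehd2 and Ehd4, set before the RefSeq start, overlapped annotated exons of the same gene. That of Ptrf (100970618 to 100970867) lay within the annotated gene, so its matches are not upstream of it. The share of G and C was 59.6% before Cav1, 62.0% before Cav2, 56.0% before Cav3 and 48.8% before Murc, against a median of 52.4%. These matches describe the letters alone. A RefSeq window was found for 8 of the 9 genes, and for Cav1, with 2 starts listed, the one at the start of the gene is shown.

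Cav1, a structural caveolin of endothelial cells, fibroblasts, smooth muscle and fat cells, showed the largest fall of the 9 genes. It stood at 100, 87.7 and 136 adjusted read counts in replicates 1, 2 and 3 of FITChigh and at 820, 722 and 682 in FITCdim. Each FITCdim library was far above each FITChigh library. The log2 fold change was -2.79 (adjusted p = 3.7e-08, with SE 0.16), a level 6.90-fold higher in FITCdim. Behind these values were 331 reads over FITChigh and 2531 over FITCdim.

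Cav2, which joins caveolin-1 in mixed oligomers, was a rarer transcript with a fall of similar size. Its values were 17.1, 30.2 and 12.2 in FITChigh and 113, 82.4 and 108 in FITCdim, again without overlap. The log2 fold change was -2.37 (adjusted p = 2.1e-05, with SE 0.29). Its level in FITChigh rests on 55 reads, against 346 in FITCdim. Within a library the log2 ratio of Cav1 to Cav2 was 2.45 ± 0.93 in FITChigh and 2.87 ± 0.24 in FITCdim (n = 3 per gate, SD). Their difference of -0.42 was smaller than the spread in FITChigh (exact two-sided permutation p = 0.6).

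Cav3, the muscle caveolin, was at like levels in both gates. It stood at 153, 177 and 134 adjusted read counts in FITChigh and at 171, 158 and 108 in FITCdim. The lowest library was FITCdim replicate 3 and the highest FITChigh replicate 2, and the gates overlapped. The log2 fold change was 0.10 (adjusted p = 0.77, with SE 0.19), with a 95% interval of -0.29 to 0.50. It was -0.10 with each library rescaled to 1 common total and -0.10 without FITCdim replicate 3, so its direction depends on the scaling and on that library.

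**Figure D1:**
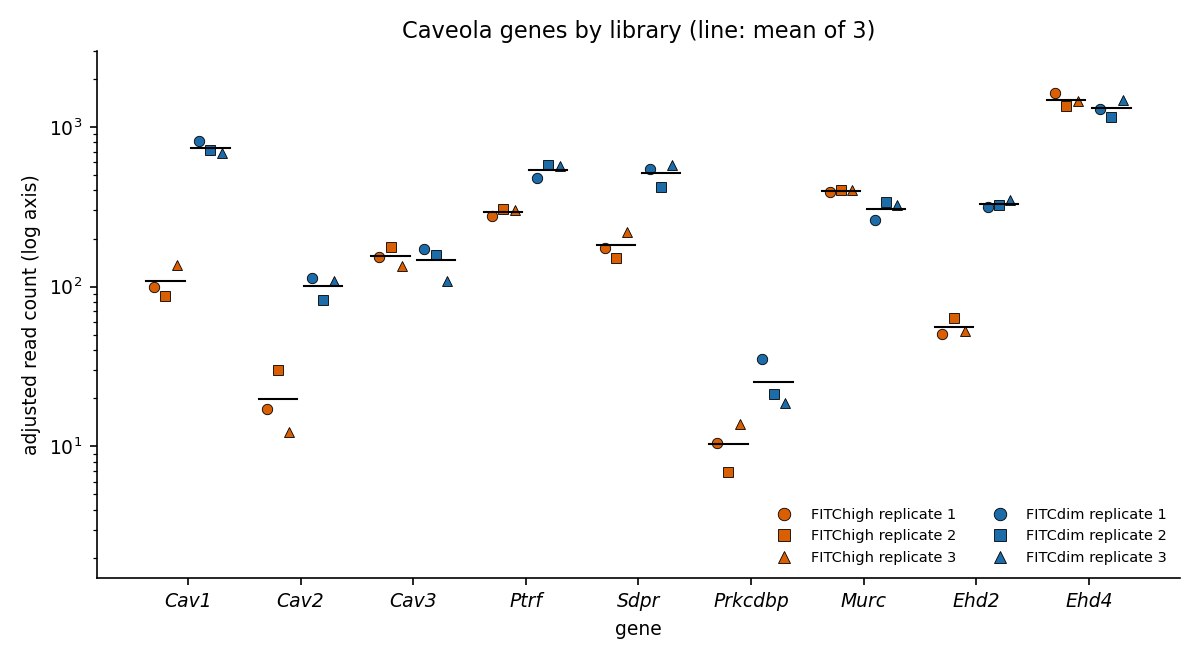
Adjusted read count on a log axis for each of the 9 caveola genes, with 1 point per library, orange for FITChigh and blue for FITCdim, and a line at each mean of 3. Cav1, Cav2 and Ehd2 are separated widely, with Cav1 at 87.7 to 136 in FITChigh against 682 to 820 in FITCdim, while Cav3 and Ehd4 overlap.

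The muscle caveolin and the others were contrasted within each library, where a scaling common to all genes cancels apart from the pseudocount. The log2 ratio of Cav1 to Cav3, from log2(value + 1), and not corrected for length, was at most 0.02 in the FITChigh libraries and 2.25, 2.18 and 2.65 in FITCdim. Cav1 thus had about as many reads as Cav3 or fewer in FITChigh, and several times more in FITCdim. The means were -0.53 ± 0.52 and 2.36 ± 0.25 (n = 3 per gate, SD), and the ratio was 7.41-fold higher in FITCdim. For Cav2 to Cav3 the log2 ratio was -2.98 ± 0.43 in FITChigh and -0.51 ± 0.47 in FITCdim (n = 3 per gate, SD), 5.56-fold higher in FITCdim. Each exact two-sided permutation test gave p = 0.1, also when adjusted over these 2 ratios, which is the smallest value that 20 assignments of 3 against 3 libraries allow, so a threshold of 0.05 cannot be reached.

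Caveolin levels were compared between genes per kb of exon, using the union of annotated exons: 3444 bases for Cav1, 3335 for Cav2 and 1157 for Cav3. In FITChigh the level of Cav3 was 134 ± 18.6 adjusted read counts per kb, that of Cav1 31.4 ± 7.31 and that of Cav2 5.96 ± 2.78 (n = 3 per gate, SD). In FITCdim Cav1 led with 215 ± 20.6 per kb, ahead of Cav3 at 126 ± 28.9 and Cav2 at 30.3 ± 4.93 (n = 3 per gate, SD). Of the summed caveolin level per kb, Cav3 made up 79.4%, 81.6% and 72.8% in replicates 1, 2 and 3 of FITChigh and 35.2%, 36.8% and 28.8% in FITCdim. Every FITChigh library was above every FITCdim library. With the longest annotated transcript as the length, an alternative chosen after seeing the data, the share was 73.9% ± 5.13 against 28.9% ± 3.89 (n = 3 per gate, SD). The isoform in use is not known from these values.

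**Figure D2:**
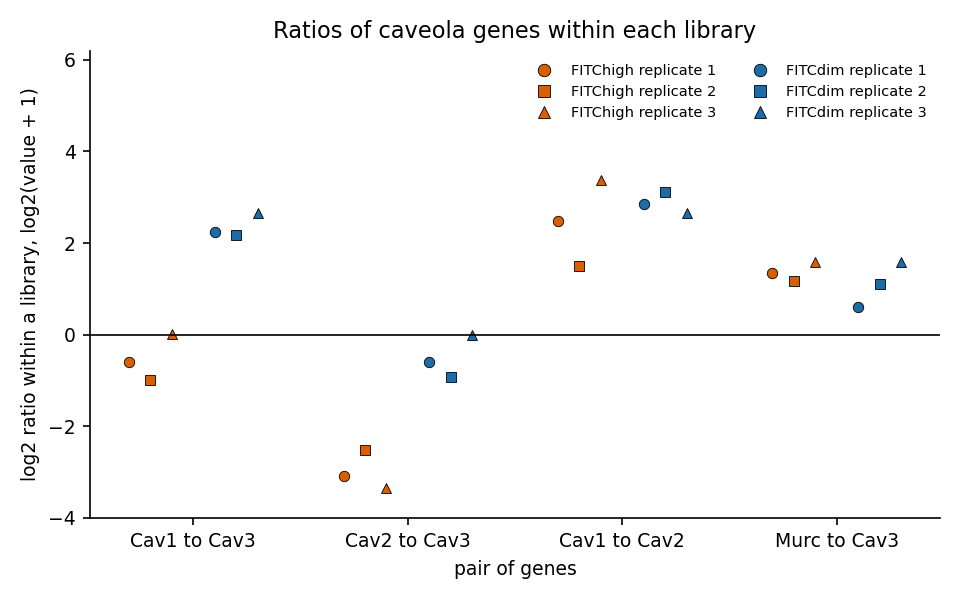
Log2 ratio of 2 genes within each library for 4 pairs of caveola genes, with 1 point per library, orange for FITChigh and blue for FITCdim. The gates are apart for Cav1 to Cav3 (at most 0.02 against 2.18 to 2.65) and for Cav2 to Cav3, and they overlap for Cav1 to Cav2 and for Murc to Cav3.

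Of the 4 cavins, 3 fell and the muscle cavin did not pass the test. Ptrf encodes cavin-1, the coat protein that caveolae of muscle and non-muscle cells both need. It stood at 276, 305 and 302 adjusted read counts in FITChigh and 479, 574 and 570 in FITCdim. The gates did not overlap, and the log2 fold change was -0.87 (adjusted p = 1.9e-04, with SE 0.13), which is 1.83-fold. Ptrf lies on chromosome 11 at 100956733 to 100970887.

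Sdpr encodes cavin-2, a cavin that binds phosphatidylserine and helps to shape the caveolar membrane (chromosome 1, 51289126 to 51302960). Its values were 175, 151 and 219 in FITChigh and 543, 422 and 574 in FITCdim. Each FITCdim library was above each FITChigh library. Its fall was -1.50 on the log2 scale (adjusted p = 8.2e-06, with SE 0.16), which is 2.83-fold.

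Prkcdbp encodes cavin-3, a cavin that binds protein kinase C delta (chromosome 7, 105480083 to 105482300). It was the cavin with the fewest reads, 32 over FITChigh and 89 over FITCdim. Its values were 10.5, 6.88 and 13.8 in FITChigh against 35.3, 21.4 and 18.6 in FITCdim. The gates did not overlap, but FITCdim replicate 1 stood well above the other FITCdim libraries. The log2 fold change was -1.19 (adjusted p = 0.032, with SE 0.36). This call was lost without FITCdim replicate 1 (-0.92, adjusted p = 0.18), without FITCdim replicate 2 (0.064), without FITChigh replicate 1 (0.07) or 2 (0.11), and after quantile normalization (0.14). Over 15 alternatives the adjusted p ran from 0.013 to 0.18.

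Murc encodes cavin-4, the muscle cavin (chromosome 4, 48663514 to 48673502). It stood at 389, 400 and 404 adjusted read counts in FITChigh and at 261, 341 and 324 in FITCdim. All FITChigh libraries were above all FITCdim libraries, yet at a log2 fold change of 0.38, with SE 0.14, the adjusted p was 0.08. With a common total it was 0.17 (adjusted p = 0.48). Over the 15 alternatives its adjusted p ran from 0.013 to 0.48. The log2 ratio of Murc to Cav3 was 1.37 ± 0.21 in FITChigh and 1.10 ± 0.49 in FITCdim (n = 3 per gate, SD), which overlapped (exact two-sided permutation p = 0.4).

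Of the summed cavin level per kb, Murc made up 57.5%, 58.4% and 54.5% in FITChigh and 27.6%, 34.8% and 30.6% in FITCdim. Ptrf made up 24.1% ± 1.30 and 31.1% ± 2.26, and Sdpr 17.3% ± 2.52 and 34.7% ± 5.11 (n = 3 per gate, SD). Prkcdbp made up 1.82% ± 0.534 and 3.16% ± 1.29 (n = 3 per gate, SD). In FITChigh the muscle cavin was thus the largest part of the 4, while in FITCdim Ptrf, Sdpr and Murc had similar parts.

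The fall of Cav1 was set beside those of its coat genes within each library, for pairs chosen after seeing the data. The log2 ratio of Cav1 to Ptrf was -1.46 ± 0.32 in FITChigh and 0.45 ± 0.28 in FITCdim (n = 3 per gate, SD), and that of Cav1 to Sdpr -0.75 ± 0.06 and 0.54 ± 0.27 (n = 3 per gate, SD). Relative to Ptrf, Cav1 was 3.77-fold higher in FITCdim, and relative to Sdpr 2.44-fold. The log2 ratio of Ptrf to the muscle cavin Murc moved from 0.81 ± 0.06 in FITCdim to -0.43 ± 0.06 in FITChigh (n = 3 per gate, SD). Values did not overlap in any of these 3 ratios, and each exact two-sided permutation test gave p = 0.1, the smallest possible, and 0.18 adjusted over the 7 ratios added.

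**Figure D3:**
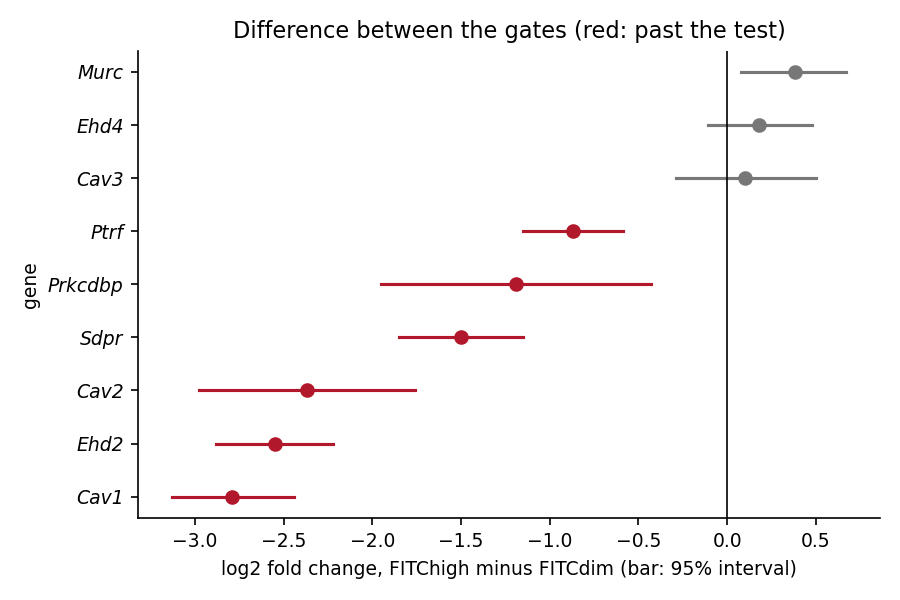
Log2 fold change of the 9 caveola genes, FITChigh minus FITCdim, with 95% intervals from limma, ordered by size. The 6 genes in red passed the test, from Cav1 at -2.79 to Ptrf at -0.87, and Cav3, Ehd4 and Murc in grey did not.

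Ehd2 and Ehd4 belong to a family of membrane-shaping ATPases, of which Ehd2 fell and Ehd4 did not pass the test. Ehd2, which sits at the caveolar neck and holds caveolae at the cell surface (chromosome 7, 15946958 to 15967567), stood at 50.5, 63.6 and 52.4 in FITChigh and 315, 325 and 347 in FITCdim. The gates were widely apart and the libraries of a gate close together. The log2 fold change was -2.55 (adjusted p = 3.7e-08, with SE 0.16), which is 5.87-fold. Beside Cav1, the log2 ratio of Cav1 to Ehd2 was 0.93 ± 0.45 in FITChigh and 1.17 ± 0.20 in FITCdim (n = 3 per gate, SD), with overlapping values (exact two-sided permutation p = 0.4).

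Ehd4, best known for endosomal traffic (chromosome 2, 120089175 to 120154606), had the most reads of the 9 genes, 4418 over FITChigh and 4363 over FITCdim. It stood at 1642, 1354 and 1447 in FITChigh and 1302, 1148 and 1470 in FITCdim, with FITCdim replicate 3 inside the range of FITChigh. The log2 fold change was 0.18 (adjusted p = 0.43, with SE 0.14; 95% interval -0.11 to 0.48). With a common total it was -0.02 and after quantile normalization -0.08. The log2 ratio of Ehd2 to Ehd4 was -4.72 ± 0.30 in FITChigh and -1.98 ± 0.14 in FITCdim (n = 3 per gate, SD), 6.66-fold higher in FITCdim and without overlap (exact two-sided permutation p = 0.1; 0.18 adjusted over the 7 ratios added).

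Per kb of exon, the order of the 9 levels in FITChigh was Ehd4, Murc, Cav3, Ptrf, Sdpr, Cav1, Ehd2, Prkcdbp and Cav2. Each neighbour in that order was apart in all libraries except Prkcdbp (6.25 ± 2.08 per kb) and Cav2 (5.96 ± 2.78; n = 3 per gate, SD). In FITCdim the order was Ehd4, Cav1, Sdpr, Ptrf, Murc, Cav3, Ehd2, Cav2 and Prkcdbp. There Sdpr at 168 ± 26.4 per kb, Ptrf at 151 ± 14.9, Murc at 150 ± 20.6 and Cav3 at 126 ± 28.9 (n = 3 per gate, SD) overlapped from one neighbour to the next. Cav1 ranked sixth in FITChigh and was next to the top in FITCdim. Ehd4 led both gates, at 370 ± 36.7 and 326 ± 40.2 per kb (n = 3 per gate, SD).

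**Figure D4:**
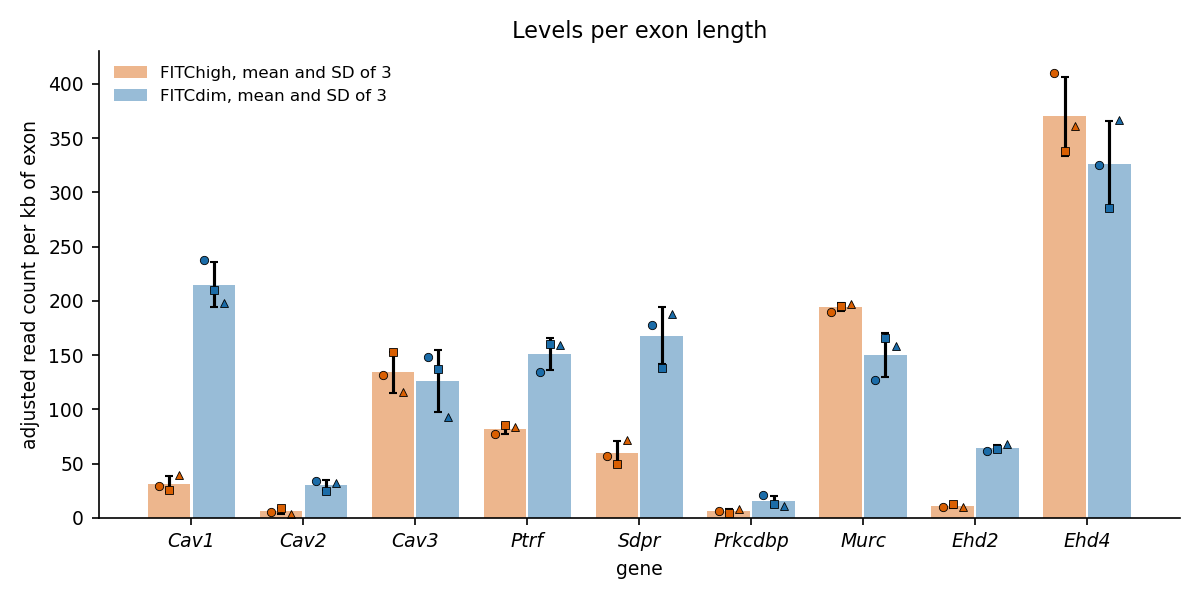
Adjusted read count per kb of annotated exon for the 9 caveola genes, with bars from 0 for the mean, error bars for the SD of 3 libraries, and 1 point per library. In FITChigh the highest bars are Ehd4, Murc and Cav3, and in FITCdim Ehd4, Cav1 and Sdpr.

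The genes with the profile most like that of Cav1 over the 6 libraries were found among 6285 genes of at least median level, by the root mean square difference of log2 values centred on each gene's mean. They were Dock9 (difference 0.10), a guanine nucleotide exchange factor, Tek (0.12), the angiopoietin receptor of endothelial cells, and Fmo1 (0.16), a flavin-containing monooxygenase. Dock9 stood at 32.1 ± 5.41 in FITChigh and 216 ± 17.5 in FITCdim, and Tek at 26.0 ± 4.86 and 176 ± 24.3 (n = 3 per gate, SD). Prkcdbp was below the median level and not compared. Of the other caveola genes Ehd2 was the nearest to Cav1 (0.31), followed by Cav2 (0.59), Sdpr (0.66) and Ptrf (0.99). Among all 6285 genes they ranked 69th, 213th, 241st and 380th. The genes nearest to Cav3 were Mrpl23 (0.05), a mitochondrial ribosomal protein gene, Rnh1 (0.05), a ribonuclease inhibitor, and Dram2 (0.06), a lysosomal membrane protein gene. Cav3 differed from Murc by 0.33 and from Ehd4 by 0.34, which placed them only 3319th and 3359th in nearness among the 6285 genes.

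Other genes of caveolae were taken from lists. Of 15 further coat, neck and kinase genes, 5 were lower in FITChigh, 2 were higher and 8 did not pass. Of all genes tested, 13.5% were lower and 2.51% were higher. The list median was -0.26 on the log2 scale. Lower were the dynamins Dnm1 (-2.30, adjusted p = 0.0022) and Dnm3 (-1.85, adjusted p = 0.0027), Plvap, which forms the diaphragms of endothelial caveolae (-1.89, adjusted p = 0.003), Ehd3 (-1.86, adjusted p = 0.015) and the kinase Fyn (-0.78, adjusted p = 0.0021). Dnm1 had 3 reads, Ehd3 5 reads and Dnm3 14 reads over FITChigh. The Plvap call was lost without FITCdim replicate 1 (adjusted p = 0.052), and that of Ehd3 without FITCdim replicate 1 (0.06) or 3 (0.09) or FITChigh replicate 1 (0.065), and after quantile normalization (0.095).

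The 2 higher genes were Flot1, a flotillin of membrane microdomains, and Pacsin3, the muscle form of a membrane-bending family found at caveolae. Flot1 stood at 593 ± 50.9 in FITChigh against 395 ± 54.6 in FITCdim (n = 3 per gate, SD; log2 fold change 0.59, adjusted p = 0.0079, with SE 0.14). Pacsin3 stood at 583 ± 69.5 against 434 ± 35.8 (n = 3 per gate, SD; 0.42, adjusted p = 0.044, with SE 0.14). With a common total neither was called (adjusted p = 0.062 for Flot1 and 0.32 for Pacsin3). Without FITCdim replicate 1 or FITChigh replicate 1 neither was called, and without any 1 of FITCdim replicates 2 and 3 and FITChigh replicate 2 the Pacsin3 call was lost. The Pacsin3 call was also lost after quantile normalization (0.30, adjusted p = 0.14) and with robust empirical Bayes (adjusted p = 0.053). The member with the most reads, Pacsin2, did not pass (0.20, adjusted p = 0.43; -0.00 with a common total).

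Of 18 genes of the transverse tubule, of membrane repair and of Cav3 partners, 17 were tested. Of these, 1 was higher in FITChigh, 1 was lower and 15 did not pass. Of all genes tested, 13.5% were lower and 2.51% were higher. The list median was 0.27 on the log2 scale. The higher gene was Trim72, a muscle repair protein that binds caveolin-3, at 1033 ± 131 against 722 ± 102 (n = 3 per gate, SD; 0.52, adjusted p = 0.022, with SE 0.15). It was not called with a common total (0.31, adjusted p = 0.15), after quantile normalization (0.32, adjusted p = 0.12), without FITCdim replicate 1 (0.14) or without FITChigh replicate 1 (0.12) or 2 (0.068). The lower gene was Bin1, a membrane-curving protein of transverse tubules and other cells, at 1.82 ± 1.08 against 11.3 ± 5.99 (n = 3 per gate, SD; -2.10, adjusted p = 0.0074), with 5 reads over FITChigh. Its call was lost without FITCdim replicate 1 (adjusted p = 0.066). Tcap, the titin cap protein, had the highest level at 5235 ± 1227 against 3619 ± 595 (n = 3 per gate, SD; 0.52, adjusted p = 0.075). Dystrophin, Dmd, at 0.07 and dystroglycan, Dag1, at -0.02 were near 0. The exception to testing, Nos1, had 2 reads over FITChigh.

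Of 15 genes of endothelial caveola cargo and signalling, all tested, 12 were lower in FITChigh, 0 were higher and 3 did not pass. Of all genes tested, 13.5% were lower and 2.51% were higher. The list median was -2.42 on the log2 scale. Trpv4, a calcium channel, stood at -3.04 (adjusted p = 1.8e-04), with 7 reads over FITChigh. Nos3, the endothelial nitric oxide synthase that caveolin-1 binds, stood at 16.8 ± 3.72 against 138 ± 20.5 (n = 3 per gate, SD; -2.97, adjusted p = 2.2e-07, with SE 0.23). Eng, endoglin, stood at 83.8 ± 12.4 against 582 ± 99.5 (n = 3 per gate, SD; -2.78, adjusted p = 3.7e-08, with SE 0.16). The 3 that did not pass were the fatty acid transporter Cd36, at 3430 ± 229 against 3899 ± 482 (n = 3 per gate, SD; -0.18, adjusted p = 0.47), Insr, the insulin receptor (0.17, adjusted p = 0.51), and Trpc1 (0.51, adjusted p = 0.48). After quantile normalization Cd36 was called lower (-0.55, adjusted p = 0.021), which made 13 of the 15 lower. Cd36 and Insr are also expressed by myocytes. Plvap stands on this list and on the previous one.

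Markers of other cell types moved with the lower caveola genes. Of all genes tested, 13.5% were lower in FITChigh and 2.51% were higher. All 12 endothelial markers were lower in FITChigh (median log2 fold change -2.71), with a summed level of 695 to 925 against 4612 to 5539 in FITCdim, and none was at 0 reads over a gate. Fabp4, their highest member, stood at 227 ± 62.0 against 1225 ± 191 (n = 3 per gate, SD). Beside that median, Cav1 stood at -2.79, Ehd2 at -2.55 and Cav2 at -2.37, while Sdpr at -1.50, Prkcdbp at -1.19 and Ptrf at -0.87 were nearer to 0 than each of the endothelial markers, of which Egfl7 at -2.16 was the nearest; these differences between genes were not tested. Of 10 fibroblast markers, 9 were tested and all 9 were lower (median -2.66; sum 65.9 to 90.5 against 448 to 864). The defining gene Tcf21 was not tested, with 0 reads over FITChigh and 4 over FITCdim. Dcn, the highest, stood at 25.8 ± 8.99 against 243 ± 94.3 (n = 3 per gate, SD). Cav1, Ehd2 and Cav2 lay within the range of the tested fibroblast markers too, from Dcn at -3.18 to Ddr2 at -1.75.

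Of 10 pericyte and smooth muscle markers, 8 were lower (median -2.29), with sums of 1395 to 1849 and 1945 to 2557. The 2 that did not pass, Abcc9 (0.10) and Acta2 (-0.45), hold most of that sum, and Abcc9 is also expressed by myocytes. All 7 tested of 9 leukocyte markers were lower (median -2.47), with sums of 79.0 to 112 against 390 to 867. Lyz2, the highest, stood at 34.7 ± 9.90 against 208 ± 111 (n = 3 per gate, SD). Cd3e and Cd79a were not tested, with 0 reads over FITChigh and 1 and 2 reads over FITCdim. All 5 tested of 6 epicardial and mesothelial markers were lower (median -3.44; sum 5.68 to 8.64 against 70.8 to 167; Wt1 3.32 ± 1.53 against 33.5 ± 10.3, n = 3 per gate, SD), as were all 5 atrial markers (median -3.22; sum 201 to 443 against 1138 to 2453; Nppa 237 ± 78.4 against 800 ± 303, n = 3 per gate, SD). Of 6 fat cell markers, 5 had 0 reads in all libraries and Plin1 had 2 reads, both in FITChigh, so the defining markers of fat cells were at or near 0 in both gates. Of the 12 cardiomyocyte markers 1, Tnni3, was higher in FITChigh (0.66, adjusted p = 0.042), 0 were lower and 11 did not pass (median 0.46), and Myh6, the highest, stood at 0.75 (adjusted p = 0.14). Myh6 was called higher with limma-voom (adjusted p = 8.0e-04), with robust empirical Bayes (0.0013) and at a minimum value of 10 (0.035). Its log2 fold change was 0.00 after quantile normalization. That scaling gives equal values to equal ranks, so it cannot show a difference in a gene that keeps its rank in each library. The part of these cell types in the differences of the caveola genes was not tested.

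**Figure D5:**
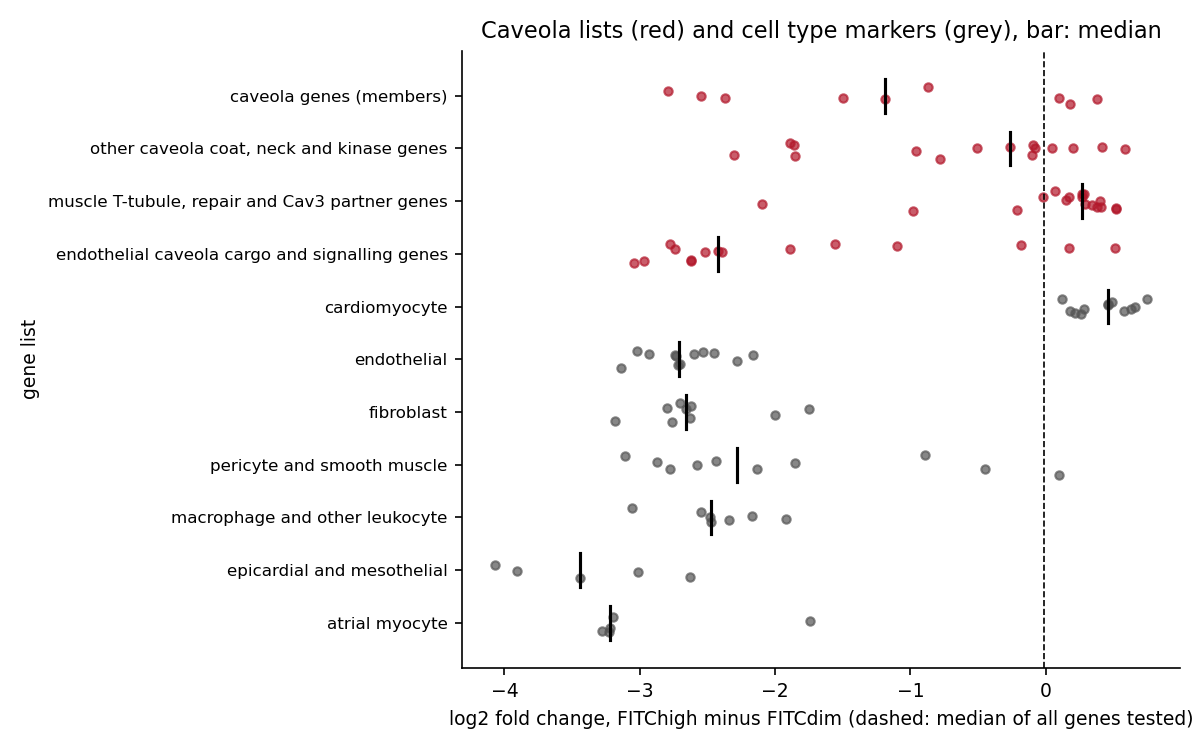
Log2 fold change, FITChigh minus FITCdim, of each tested gene of the caveola lists (red) and of the cell type marker lists (grey), with a bar at each list's median and a dashed line at the median of all genes tested, -0.01. The 9 caveola genes spread from -2.79 to 0.38. Cav1, Ehd2 and Cav2 lie within the range of the endothelial markers (-3.14 to -2.16). They also lie within the ranges of the fibroblast (-3.18 to -1.75), leukocyte (-3.06 to -1.92), pericyte and smooth muscle, and atrial markers. The median of the cardiomyocyte markers is 0.46.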

How the data were processed

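The mRNA of 6 libraries, 3 per gate, was sequenced as paired reads of 75 bp from a stranded library kit, per the labels' protocols. STAR 2.5, edgeR and the build mm10 are named in the submitters' processing notes. How reads were counted (program, gene models, strand) is not given in the sources used here. What the authors deposited is a signal, 1 number for each gene in each library: a count of reads after adjustment to the same library size, neither a raw count nor divided by length. Column totals still differed, 2333473 to 2443707 in FITChigh and 2030583 to 2112872 in FITCdim. Of 23410 gene lines, 6 were garbled and left out.

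To recover the reads, a quantile adjustment under a negative binomial was inverted (dispersion 0.0203). Of the values, apart from the lowest, 100% came out whole within 0.1 read. The recovered reads served for depth, counting intervals and limma-voom. Libraries of a gate differed by more than sampling, at 3.87 to 6.60 chi-square units for each degree of freedom. The labels do not say that they came from separate animals; if they did not, p-values measure only the spread between these samples, which may be technical.

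Those genes that reached a value of 1 in 3 or more libraries (12907) were tested with limma 3.58.1 in R 4.3.3 (trend, two-sided, no block). On simulated reads for this comparison (13019 genes tested, 200 changed), 44.0% of genes changed 2-fold and 96.0% of those changed 4-fold were recovered, and 4.8% of calls were false. The simulation assumed a larger dispersion than the one recovered and far fewer changed genes than were called in the data. Its rates may thus not hold for these libraries. Ratios were compared by exact permutation in Python 3.11.15. Replicates are numbered in accession order. Positions and exon lengths are from GENCODE M21 on the same build, and older symbols were matched through RefSeq synonyms (all 4 cavins, and Adgre1 as Emr1). Every caveola gene is named. Per caveola list, the text names the gene of highest mean and up to 3 calls per direction of largest change, given a mean of 1 or more, per marker list the highest member, and for Cav1 and Cav3 the 3 genes of nearest profile. Others, such as Fyn, Dnm3, Dmd, Dag1, Egfl7 and Acta2, were chosen after their values were seen. The members and lists were chosen with earlier results of these data known. Alternatives were other pseudocounts, filters, scalings, tests, a block and libraries left out.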

Additional observations from a re-analysis of the deposited data

How the results depend on the processing

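Over 15 alternatives, Cav1, Cav2, Ptrf, Sdpr and Ehd2 were called lower in each, and Cav3 and Ehd4 were called in none. The count of lower caveola genes was 5 or 6. The ratio of Cav1 to Cav3 and that of Cav2 to Cav3 moved by less than 1 SD in each of the 11 alternatives computed for them. With a common total, the median of all genes shifted by -0.20 (log2), and higher genes made up 1.84% of calls in place of 15.6%. After quantile normalization that share was 27.8% and the shift 0.14. Log2 fold changes that turned sign with a common total were -0.10 for Cav3, -0.02 for Ehd4, -0.00 for Pacsin2 and -0.11 for Abcc9. After quantile normalization those of Ehd4 (-0.08) and Abcc9 (-0.16) turned. With a library left out, that of Cav3 ran from -0.10 (without FITCdim replicate 3) to 0.23, and that of Abcc9 from -0.06 (without FITCdim replicate 2; -0.04 without FITChigh replicate 3) to 0.27. The causes were not tested.

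Of the coat, neck and kinase genes, 2 were higher, but 0 with a common total and 1 each after quantile normalization and with robust empirical Bayes. Leaving out a library gave 0 to 2. The lower ones numbered 5, but 6 with a common total and with the replicate block described below, where the kinase Yes1 was called too. They numbered 4 after quantile normalization, and 3 at a minimum value of 10, where Ehd3 and Dnm1 were not tested. With a library left out they numbered 3 to 5. Of the muscle partner genes, 1 was higher, but 0 with a common total, 0 after quantile normalization, 2 with limma-voom and 2 with robust empirical Bayes, and 0 to 2 with a library left out. The 1 lower, Bin1, gave 0 at a minimum value of 10 (not tested there), 0 after quantile normalization and 0 to 1 with a library left out.

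A replicate block paired the libraries by the title tags that the gates share, 1-2 and 3-4 (replicates 2 and 3), and paired the replicate 1 libraries only because both titles have no tag. Deviations from the group means correlated across genes at 0.13 and 0.17 for the tagged pairs, at 0.07 for the untagged pair, and at -0.12 to -0.01 for other pairs. Each library correlated best with its partner, a hint from the data and not the design, since 1 value was not over 0.1. A gene's deviations cancel within a gate, so the negative values of other pairs are not independent of the positive ones. With the replicate block, 1064 genes were higher and 2059 lower in place of 324 and 1748. The caveola genes called higher became 1, Murc (adjusted p = 0.013), and the muscle partner genes called higher became 7. Myh6 was called higher too (adjusted p = 0.0041). Among the 9 caveola genes, depth limits Cav2 and Prkcdbp most, with 55 and 32 reads over FITChigh. Of the list genes named, Dnm1 (3 reads), Ehd3 (5), Bin1 (5), Trpv4 (7), Wt1 (10) and Dnm3 (14) were among those with fewer.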
